A study of Mus musculus with 9 samples.

Results

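The mitochondrial ribosomal proteins were taken as all rows of the expression table whose gene symbol begins with Mrpl or Mrps followed by a digit, a rule that used no expression value. It found 77 of 24060 genes, and all 77 passed the filter on low values (a highest level above 1 TPM, a length-corrected share of the transcripts, in any library), which 11330 genes passed. RNA was sequenced from activated CD8 T cells of 3 transnuclear mouse lines, R7-I, R7-II and R7-III, each made from the nucleus of a single T cell so that its CD8 T cells share that receptor. Each line therefore stands for 1 clone. The lines were compared because their receptors bind the same ROP7 peptide of Toxoplasma gondii with different strength. With purified proteins the authors found R7-I to be the strongest binder, R7-III intermediate and R7-II the weakest. With the receptor on the cell they report similar affinities for R7-I and R7-III, and a lower affinity for R7-II. R7-I then differed from R7-III by a higher adhesion frequency. All mice were on a BALB/c background with functional Rag2, and no source used here gives the age of the donors. Splenocytes of every line were cultured overnight in medium holding IL-2 at 10 ng/ml and ROP7 peptide at 10 µM, and live cells positive for CD3, CD8 and the H-2Ld-ROP7 tetramer were sorted. There were 3 libraries per clone, labelled as biological replicates, and 9 in all.

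The mitochondrial ribosome, or mitoribosome, translates the few proteins encoded by mitochondrial DNA, all of them subunits of the respiratory chain complexes and of the ATP synthase. Its RNA is made inside the organelle, whereas its proteins are encoded by nuclear genes, made in the cytosol and imported. Some of these proteins descend from those of the bacterial ribosome, and others were added in the mitochondrial lineage. T cells enlarge their mitochondria when antigen activates them, and the genes for mitochondrial translation are among those induced in this process.

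TPM sums to the same total in every library and keeps no read number. The authors give a typical number of reads per sample, but the depth of each single library is unknown. Pearson correlations of log2(TPM + 1) across genes lay between 0.992 and 0.997 within clones. The 5 CD8 T cell markers (Cd3d, Cd3e, Cd3g, Cd8a and Cd8b1) summed to between 1369 and 1411 TPM in the R7-I libraries, between 2064 and 2113 TPM in those of R7-II and between 1580 and 1597 TPM in those of R7-III, and all 5 were higher in R7-II in both of its comparisons. B cell, MHC class II and myeloid markers were also higher in R7-II. The 9 B cell markers summed to between 8.68 and 15.8 TPM in the R7-I libraries, between 36.5 and 75.3 TPM in those of R7-II and between 5.27 and 7.94 TPM in those of R7-III, with 8 of the 8 tested higher in R7-II in each comparison. The 7 MHC class II genes summed to 32.4 to 50.3, 112 to 183 and 24.3 to 28.1 TPM in the same order, with 7 of 7 higher, and the 11 myeloid markers to 64.4 to 72.9, 103 to 171 and 65.1 to 72.3 TPM, with 8 of 11 higher against R7-I and 9 of 11 against R7-III. No marker of these 3 lists was at 0 in all libraries. The 3 CD4 T cell markers summed to 0.72 to 1.35, 2.18 to 2.94 and 1.16 to 1.34 TPM in the same order. The 1 of them that was tested, Foxp3, was higher in R7-II when set against R7-III (limma, adjusted p = 0.00410) but missed the threshold when set against R7-I (adjusted p = 0.0251). The 4 NK cell markers summed to at most 0.17 TPM, with Klra8 and Klra4 listed at 0 in all libraries. The 6 erythroid markers summed to 22.1 to 73.3, 1.30 to 15.1 and 8.99 to 25.5 TPM, lowest in R7-II by their means, and none of the 4 tested passed in either comparison of R7-II. The part of these cells in the results was not tested.

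The members lie on 17 chromosomes, with at most 10 on the same chromosome (positions are those of RefSeq on GRCm38.p6, the same build as mm10). A promoter window, from 250 bases before to 50 bases after an annotated transcript start of the gene, was found in RefSeq on GRCm38.p6 for 68 of the 77. For some members, such as Mrps23 and Mrpl18, that start lies inside the span of the gene and not at its outer end. No window was available for Mrpl4, Mrpl13, Mrpl15, Mrpl19, Mrpl38, Mrpl54, Mrps28, Mrps34 and Mrps35, so the shares below leave out these 9. Each window was searched on both strands for 4 letter strings, of which CCGGAAG and AAGATGGC can share 3 letters end to end, and a match is a description of the letters and not evidence of a bound factor. CCGGAAG, the core of sites for ETS factors such as GABPA, stood in 24 of the 68 member windows (35.3%), in 20.3% of the 9032 windows of genes tested and in 9.12% of all 27025 windows. AAGATGGC, the core of YY1 sites, stood in 12 member windows (17.6%), in 5.18% of those of genes tested and in 2.88% of all. GCATGCGC, part of the NRF1 site, stood in 8 member windows (11.8%), against 5.93% and 2.80%. CACGTG, the E-box bound by Myc and other factors, stood in 5 (7.35%), against 10.8% and 7.24%.

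Of the 68 member windows, 38 held any of the 4 strings. As picked examples, 4 windows are printed 5′ to 3′ on the strand of the gene, with every match on either strand in capitals. They are those of a large and a small subunit gene that were lower in R7-II in both comparisons (Mrpl53 and Mrps12), of a former small subunit protein that is now placed in the large subunit (Mrps18a), and of the gene with the largest decrease (Mrpl55), whose window held no match. On GRCm38.p6 they span chr6:83108858-83109157 (plus strand) for Mrpl53, chr7:28741772-28742071 (minus strand) for Mrps12, chr17:46110754-46111053 (plus strand) for Mrps18a and chr11:59202236-59202535 (plus strand) for Mrpl55.
Mrpl53: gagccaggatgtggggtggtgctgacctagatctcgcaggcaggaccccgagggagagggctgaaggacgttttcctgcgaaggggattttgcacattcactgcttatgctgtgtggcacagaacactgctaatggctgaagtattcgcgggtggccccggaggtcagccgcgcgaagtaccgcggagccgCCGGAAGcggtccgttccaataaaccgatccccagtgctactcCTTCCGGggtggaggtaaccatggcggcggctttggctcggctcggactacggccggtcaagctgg
Mrps12: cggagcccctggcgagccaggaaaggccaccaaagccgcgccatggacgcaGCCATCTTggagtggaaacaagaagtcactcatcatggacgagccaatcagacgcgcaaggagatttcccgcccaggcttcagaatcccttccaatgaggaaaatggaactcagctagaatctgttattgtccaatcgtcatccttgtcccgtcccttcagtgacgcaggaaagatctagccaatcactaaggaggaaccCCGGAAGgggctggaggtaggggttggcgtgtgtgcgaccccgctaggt
Mrps18a: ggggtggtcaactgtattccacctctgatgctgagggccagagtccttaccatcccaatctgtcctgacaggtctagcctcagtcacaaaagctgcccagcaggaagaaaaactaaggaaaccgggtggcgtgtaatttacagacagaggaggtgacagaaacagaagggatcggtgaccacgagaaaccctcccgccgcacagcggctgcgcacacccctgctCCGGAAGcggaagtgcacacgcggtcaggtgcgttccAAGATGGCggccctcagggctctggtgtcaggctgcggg
Mrpl55: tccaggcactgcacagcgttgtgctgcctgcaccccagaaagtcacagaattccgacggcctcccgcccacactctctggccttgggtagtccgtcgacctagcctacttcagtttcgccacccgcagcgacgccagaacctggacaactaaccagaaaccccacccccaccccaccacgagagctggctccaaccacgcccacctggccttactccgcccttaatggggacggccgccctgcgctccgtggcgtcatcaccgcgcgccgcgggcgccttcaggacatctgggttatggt

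Many members start close to another gene on the opposite strand. A start of another gene on the opposite strand, at most 1000 bp upstream of the transcript start used for the window, was found for 26 of the 68 members (38.2%). It was found for 19.7% of the genes tested with a window and for 11.4% of all windows. In 1 pair both genes were members: Mrpl46 (chr7:78775341-78783089, minus strand) and Mrps11 (chr7:78783131-78792988, plus strand), a large and a small subunit gene, start 42 bp apart, and exons of some of their annotated transcripts overlap. Both were lower in R7-II than in R7-I, Mrpl46 with a log2 fold change of -0.18 (adjusted p = 0.00389) and Mrps11 with -0.18 (adjusted p = 0.00215), and both were lower than in R7-III.

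All 77 members were detected in every library at moderate levels. The mean TPM of a member over the 9 libraries ran from 19.0 to 398 with a median of 90.0, and TPM, being corrected for length, allows levels of different genes to be compared. The 5 most abundant were Mrpl12, Mrpl52, Mrpl20, Mrpl30 and Mrps6, and the 3 least abundant were Mrps25, Mrpl17 and Mrpl57 (formerly Mrp63). Mrpl12 is the protein of the flexible stalk of the large subunit and is also known to bind the mitochondrial RNA polymerase. Replicates were close to each other, with a median within-clone coefficient of variation of 3.87% over the members.

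**Figure D1:**
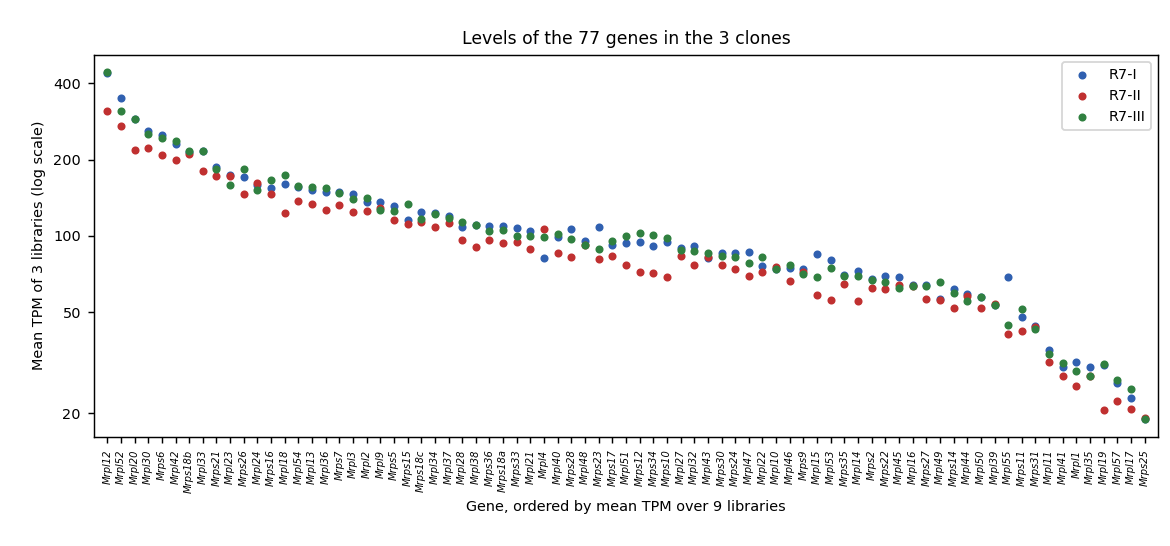
Mean TPM of the 3 libraries of each clone (log scale) for the 77 genes, ordered by the mean over all 9 libraries, with 1 point per clone. The levels fall from 398 TPM for Mrpl12 to 19.0 TPM for Mrps25, and at most genes the R7-II point is the lowest of the 3.

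The mitoribosomal protein transcripts took a smaller share of the RNA in R7-II than in the other clones. Summed over the 77 genes, the libraries held 8610, 8701 and 8621 TPM in the libraries of R7-I, 7276, 7673 and 7504 TPM in the R7-II libraries, and 8586, 8528 and 8533 TPM in the R7-III libraries. The 3 R7-II libraries lay below the other 6, and the R7-III libraries were all below those of R7-I by a small margin. The means were 8644 ± 49.6 TPM for R7-I, 7484 ± 199 TPM for R7-II and 8549 ± 32.2 TPM for R7-III (SD, n = 3), or 0.864%, 0.748% and 0.855% of all TPM. The ratio of R7-II to R7-I was 0.866, that of R7-II to R7-III 0.875, and that of R7-III to R7-I 0.989. These are descriptions with no test, and fewer cells with high levels cannot be told apart from less of the RNA in every cell in such bulk samples. Within R7-II, replicate 2 had the highest sum of the members and the lowest sums of B cell, MHC class II and myeloid markers, and the part of those other cells in the result was not tested.

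By subunit, the 50 large subunit genes summed to 5735 ± 45.7, 4928 ± 143 and 5652 ± 23.1 TPM and the 26 small subunit genes to 2799 ± 5.64, 2460 ± 60.3 and 2793 ± 10.1 TPM in R7-I, R7-II and R7-III (SD, n = 3). The ratio of R7-II to R7-I was 0.859 for the large and 0.879 for the small subunit. The remaining gene, Mrps36, carries a ribosomal name but encodes a component of the oxoglutarate dehydrogenase complex. Counted gene by gene, all 3 R7-II libraries lay below the other 6 libraries for 46 members and above them for 0. Over all genes tested these shares were 17.4% and 41.7%. All R7-I libraries were the highest for 13 members (4.98% of all genes tested) and the lowest for 1, Mrpl4 (17.1% of all genes tested). All R7-III libraries were the highest for 9 members (11.0% of all genes tested) and the lowest for 1, Mrpl44 (6.28% of all genes tested).

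**Figure D2:**
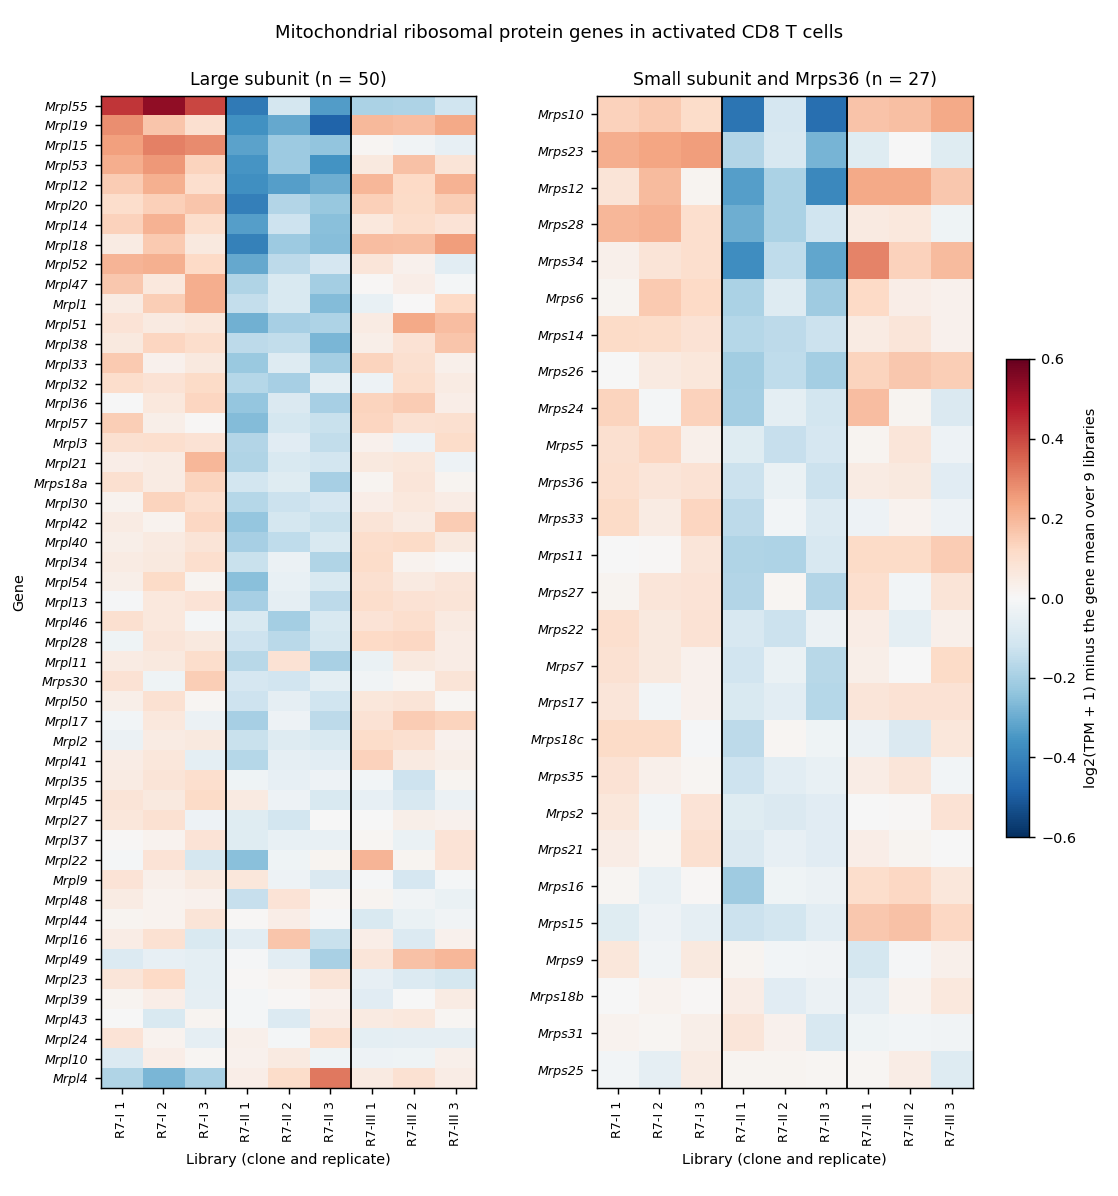
Level of each of the 77 genes in each library, as log2(TPM + 1) minus the mean of the gene over 9 libraries (colour, red above and blue below the mean), with the 50 large subunit genes on the left and the 26 small subunit genes and Mrps36 on the right. The R7-II columns are mostly blue, with all 3 libraries below the other 6 for 46 genes, and Mrpl4 shows the opposite pattern.

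The comparison of R7-II with R7-I sets the weakest binder of the peptide against the strongest. Of the 77 members, 45 were lower in R7-II, 1 was higher (Mrpl4) and 31 did not pass the adjusted p of 0.01 (limma, Benjamini-Hochberg over all 11330 genes). Of all genes tested, 15.5% were lower and 40.6% were higher, so that 58.4% of the members were called lower against a background of 15.5%. The median log2 fold change of the members was -0.18, that of all genes tested 0.17, and the log2 fold change was negative for 71 of the 77. Of the 5675 other genes whose mean level lay within the range of the members, 19.4% were lower and 40.1% higher. No member differed by more than 2-fold, and the log2 fold changes ran from -0.74 to 0.37. When each library was instead scaled by the median of its ratios to the average library (median-of-ratios scaling), which moved the median of all genes from 0.17 to -0.0013 and the share of calls that were higher in R7-II from 72.4% to 46.2%, 73 members were lower, 0 were higher, and their median was -0.36. With that scaling 29.4% of all genes tested were lower and 25.2% higher.

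Against R7-III, 41 members were lower in R7-II, 0 were higher and 36 did not pass, where 18.0% of all genes tested were lower and 35.6% higher. At an unadjusted p under 0.05, 2 members were higher and 55 lower in the same limma fit. The median log2 fold change was -0.17 for the members and 0.12 for all genes tested, and 65 of the 77 were negative. Among the 5675 genes of the same range of levels, 21.1% were lower and 36.3% higher. With the median-of-ratios factors 60 members were lower and 0 higher, with a median of -0.30, where 28.2% of all genes tested were lower, and the share of all calls that were higher went from 66.4% to 47.0%. This comparison and that with R7-I share the R7-II libraries, so their counts are not independent of each other.

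R7-III and R7-I differed little. In R7-III, 1 member was higher (Mrps15) and 3 were lower (Mrpl55, Mrpl15 and Mrps23), where 6.96% of all genes tested were higher and 1.45% lower. The median log2 fold change of the members was -0.014 and that of all genes tested 0.045. In all, 26 members passed in none of the 3 comparisons.

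**Figure D3:**
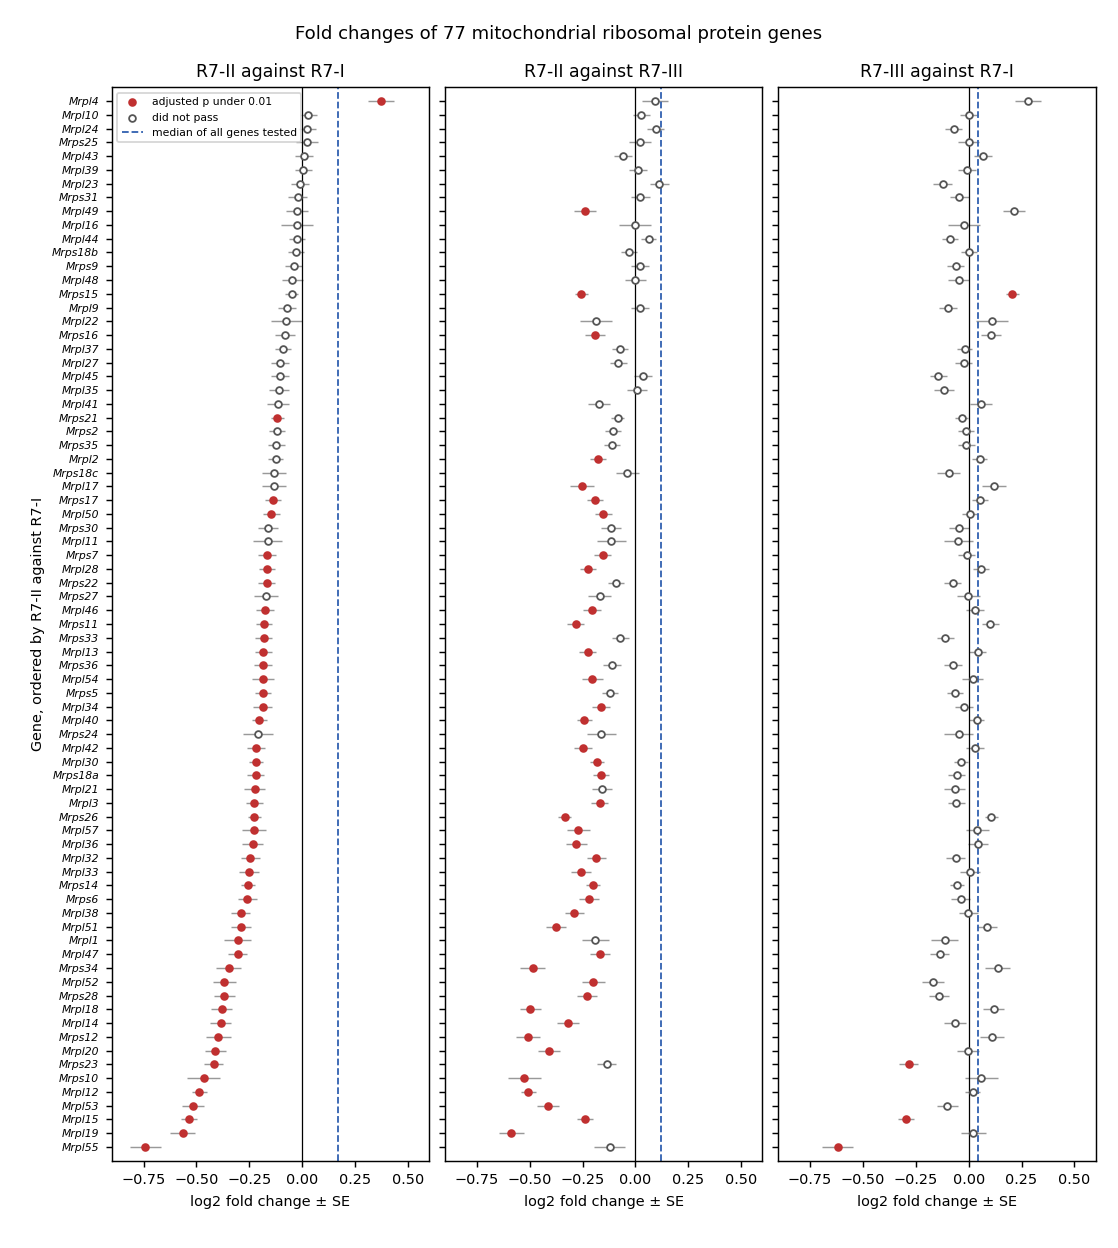
Log2 fold change on the log2(TPM + 1) scale (point) with its SE (bar) of each of the 77 genes in the 3 comparisons, in the order of R7-II against R7-I. Filled points passed the adjusted p of 0.01, 46 in the left, 41 in the middle and 4 in the right panel, and the dashed line is the median of all 11330 genes, at 0.17, 0.12 and 0.045.

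The large subunit holds the peptidyl transferase centre and the exit tunnel for the new protein. Of its 50 members, against R7-I 29 were lower and 1 higher in R7-II, with a median log2 fold change of -0.18, and 29 were lower than in R7-III, with a median of -0.18. The small subunit binds the messenger RNA and reads its codons. Of its 26 members, 15 were lower than in R7-I (median -0.17) and 12 lower than in R7-III (median -0.16), and 0 were higher, also at an unadjusted p under 0.05 in the same limma fit. Split by whether the protein takes the place of a bacterial one in the ribosome (Mrps18a and Mrps18b, paralogs at new places, were counted as mitochondria-specific), 28 of 46 members with a bacterial counterpart and 16 of 30 mitochondria-specific members were lower than in R7-I, and 27 and 14 were lower than in R7-III. Over all genes tested, 15.5% were lower and 40.6% higher in R7-II against R7-I, and 18.0% lower and 35.6% higher against R7-III. The groups of members were not tested against each other.

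Parts of the large subunit gave small counts. In the central protuberance, where the large subunit meets the small, 5 of 7 members were lower than in R7-I and 4 of 7 lower than in R7-III. Around the exit of the tunnel, 1 of 6 was lower than in R7-I (Mrpl47, -0.30, adjusted p = 0.000159) and 2 of 6 were lower than in R7-III, where 15.5% and 18.0% of all genes tested were lower (against R7-III, Mrpl47, -0.17, adjusted p = 0.00775, and Mrpl17, -0.25, adjusted p = 0.00211). Exons of Mrpl47 overlap those of Actl6a and Ndufb5 on the other strand. The others at the exit, Mrpl22, Mrpl23, Mrpl24 and Mrpl45, passed in no comparison, with log2 fold changes from -0.11 to 0.02 against R7-I. Against R7-III, Mrpl23 had 0.11 (limma, adjusted p = 0.0400) and Mrpl24 0.09 (adjusted p = 0.0551), both with all R7-II libraries above those of R7-III. Mrpl45 had 0.04 (adjusted p = 0.470) and Mrpl22 -0.19 (adjusted p = 0.0478). Mrpl23 and Mrpl24 were the 2 members higher than in R7-III at an unadjusted p under 0.05. Of the 3 stalk proteins, Mrpl12 was lower in both comparisons, and Mrpl10 (0.03 against R7-I) and Mrpl11 (-0.16, adjusted p = 0.0566) did not pass. The members named outside the rule (Mrpl10, Mrpl11, Mrpl22, Mrpl23, Mrpl24, Mrpl44, Mrpl45, Mrpl47 and the pair Mrpl46 and Mrps11) and the neighbouring genes were chosen after their values were seen.

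Mrpl12, the most abundant member (chr11:120484637-120488754, plus strand), was at 437, 456 and 421 TPM in the R7-I libraries, 304, 312 and 320 TPM in those of R7-II, and 451, 427 and 453 TPM in those of R7-III. The R7-II libraries lay far below the others, which overlapped each other. Its log2 fold change was -0.49 (SE 0.0363, adjusted p = 1.26e-06) against R7-I and -0.51 (adjusted p = 9.23e-07) against R7-III. It lost 28.7% of its level relative to R7-I.

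Mrpl19, a protein of the large subunit with a bacterial counterpart (chr6:81957826-81965949, minus strand), showed the same order at a lower level. It was at 33.2, 30.6 and 29.1 TPM in the libraries of R7-I, 20.9, 21.7 and 19.2 TPM in the R7-II libraries, and 31.2, 31.0 and 32.0 TPM in the R7-III libraries. The log2 fold change was -0.56 (SE 0.060, adjusted p = 1.42e-05) against R7-I and -0.59 (adjusted p = 1.16e-05) against R7-III, the largest decrease of any member in the second comparison. Its exons overlap those of Gcfc2 on the other strand, and because the libraries did not keep the strand, reads of the 2 genes there cannot be told apart.

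Mrpl53, a mitochondria-specific protein of the large subunit (chr6:83109108-83109932, plus strand), was at 81.0, 83.5 and 76.4 TPM in the R7-I libraries, 54.2, 59.6 and 53.9 TPM in those of R7-II, and 72.5, 78.5 and 73.4 TPM in those of R7-III. All R7-II libraries were below the rest. This gave a log2 fold change of -0.52 (SE 0.0512, adjusted p = 8.86e-06) against R7-I and -0.41 (adjusted p = 4.42e-05) against R7-III. The promoter window printed above for this gene holds CCGGAAG or its reverse complement at 2 places.

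Mrpl18, which lies in the central protuberance, and Mrpl20 were also set apart in R7-II. Mrpl18 (chr17:12911345-12917787, minus strand) was at 156, 169 and 158 TPM in the libraries of R7-I, 114, 130 and 127 TPM in the R7-II libraries, and 172, 171 and 180 TPM in the R7-III libraries. Its log2 fold change was -0.38 (SE 0.0495, adjusted p = 6.07e-05) against R7-I and -0.50 (adjusted p = 9.66e-06) against R7-III. Mrpl18 overlaps the chaperonin gene Tcp1 on the other strand, which was itself lower by -0.30 (adjusted p = 2.68e-06) against R7-I, so reads of the overlap could belong to either. Mrpl20 was at 283, 291 and 296 TPM in the R7-I libraries, 198, 233 and 225 TPM in those of R7-II, and 291, 285 and 292 TPM in those of R7-III, with a log2 fold change of -0.41 in each comparison (adjusted p = 4.22e-05 and 4.73e-05).

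In the small subunit, the largest decreases against R7-III were those of Mrps10, Mrps12 and Mrps34. Mrps10, a protein of the head of the small subunit (chr17:47368887-47381418, plus strand), was at 94.8, 95.8 and 93.0 TPM in the libraries of R7-I, 63.1, 80.2 and 62.6 TPM in the R7-II libraries, and 97.0, 97.7 and 101 TPM in the R7-III libraries. Replicate 2 of R7-II lay nearer to the other clones than the remaining R7-II libraries did, but still below them. In the limma fit the log2 fold change was -0.47 (SE 0.0775, adjusted p = 0.000337) against R7-I and -0.52 (adjusted p = 0.000158) against R7-III. Left out in turn, the libraries gave -0.58 to -0.40 against R7-I.

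Mrps12, the counterpart of the bacterial protein that guards the accuracy of decoding (chr7:28739641-28741821, minus strand), was at 93.4, 101 and 89.6 TPM in the R7-I libraries, 70.2, 77.7 and 67.6 TPM in those of R7-II, and 104, 104 and 99.2 TPM in those of R7-III. The R7-II libraries were the 3 lowest. The log2 fold change was -0.40 (SE 0.0571, adjusted p = 0.000124) against R7-I and -0.51 (adjusted p = 2.28e-05) against R7-III. The start of Sars2, the mitochondrial seryl-tRNA synthetase, lies 147 bp away on the other strand, and Sars2 did not pass in either comparison (0.11 and -0.07, adjusted p = 0.114 and 0.274).

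Mrps34, a mitochondria-specific protein of the small subunit (chr17:24895120-24896289, plus strand), was at 88.8, 91.9 and 93.4 TPM in the libraries of R7-I, 67.0, 78.2 and 69.9 TPM in the R7-II libraries, and 107, 95.9 and 99.2 TPM in the R7-III libraries. The clones did not overlap. This gave a log2 fold change of -0.35 (SE 0.0582, adjusted p = 0.000349) against R7-I and -0.49 (adjusted p = 3.54e-05) against R7-III. Its exons overlap those of Mapk8ip3 on the other strand and of Nme3 on the same strand.

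**Figure D4:**
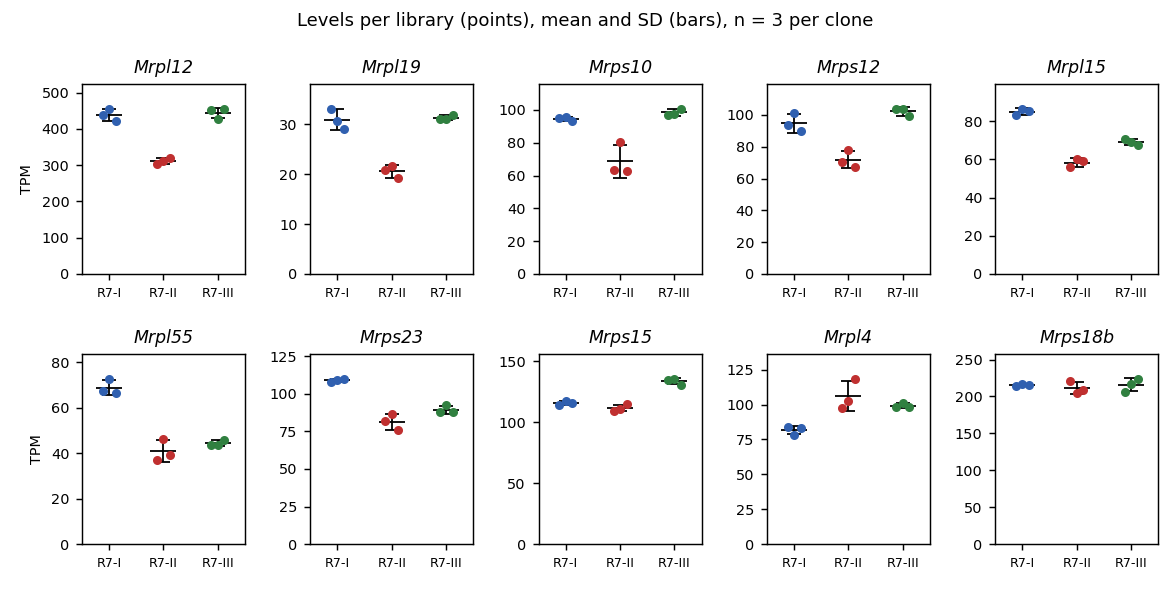
TPM in each library (points, 3 per clone) with the mean and SD (bars) for 10 genes, on linear axes that start at 0. Mrpl12, Mrpl19, Mrps10 and Mrps12 are lowest in all R7-II libraries, Mrpl15, Mrpl55 and Mrps23 are highest in all R7-I libraries, Mrps15 is highest in R7-III, Mrpl4 is lowest in R7-I, and Mrps18b overlaps between the clones.

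A few members parted R7-I from both other clones. Mrpl55, a protein of the central protuberance (chr11:59202486-59206138, plus strand), was at 67.5, 72.8 and 66.3 TPM in the R7-I libraries, 37.0, 46.5 and 39.4 TPM in those of R7-II, and 43.7, 43.8 and 45.9 TPM in those of R7-III. R7-II and R7-III overlapped, and R7-I stood above both. In the limma fit the log2 fold change was -0.74 (SE 0.0726, adjusted p = 8.06e-06) for R7-II against R7-I and -0.62 (adjusted p = 0.000369) for R7-III against R7-I, and -0.12 (adjusted p = 0.160) for R7-II against R7-III. The gene 2610507I01Rik starts 55 bp away on the other strand. It was at 11.1, 9.80 and 10.8 TPM in the libraries of R7-I, 5.80, 4.91 and 5.10 TPM in the R7-II libraries, and 3.18, 3.77 and 4.56 TPM in the R7-III libraries, with log2 fold changes of -0.88 (adjusted p = 3.94e-05) for R7-II and -1.26 (adjusted p = 4.99e-05) for R7-III, both against R7-I. In the same limma fit this neighbour also passed for R7-II against R7-III, with 0.38 (adjusted p = 0.00948). Mrpl55 had -0.12 there and did not pass. Of the 23 genes tested with a start near that of a member and not members themselves, 5 were lower and 5 higher in R7-II when set against R7-I, where 15.5% and 40.6% of all genes tested were.

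Mrpl15, which binds the RNA of the large subunit (chr1:4773198-4785750, minus strand), differed between all 3 clones. It was at 83.2, 86.7 and 85.4 TPM in the R7-I libraries, 55.8, 60.1 and 59.2 TPM in those of R7-II, and 70.6, 69.0 and 67.6 TPM in those of R7-III, with no overlap between any of the clones. The log2 fold change was -0.54 (SE 0.0378, adjusted p = 8.60e-07) for R7-II against R7-I, -0.24 (adjusted p = 0.000250) for R7-II against R7-III and -0.30 (adjusted p = 0.000582) for R7-III against R7-I.

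Mrps23, a mitochondria-specific protein of the small subunit (chr11:88194106-88211507, plus strand), was at 108, 109 and 110 TPM in the libraries of R7-I, 81.5, 86.2 and 76.0 TPM in the R7-II libraries, and 87.7, 92.4 and 87.7 TPM in the R7-III libraries. R7-I stood above both other clones, which lay close to each other. This gave a log2 fold change of -0.42 (SE 0.0448, adjusted p = 1.49e-05) for R7-II against R7-I, -0.28 (adjusted p = 0.00188) for R7-III against R7-I and -0.14 (adjusted p = 0.0206) for R7-II against R7-III. The call between R7-III and R7-I did not pass without R7-III replicate 1 or without R7-III replicate 3, where the log2 fold change was -0.27 in each case.

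Mrps15 and Mrpl4 went their own ways. Mrps15, a primary RNA-binding protein of the small subunit (chr4:126046928-126055536, plus strand), was at 114, 118 and 116 TPM in the R7-I libraries, 110, 111 and 115 TPM in those of R7-II, and 134, 136 and 131 TPM in those of R7-III. R7-III stood above the rest, which overlapped. Set against R7-I, R7-III had a log2 fold change of 0.21 (SE 0.0305, adjusted p = 0.00126), and R7-II had -0.26 (adjusted p = 3.29e-05) against R7-III and -0.05 (adjusted p = 0.167) for R7-II against R7-I. With the median-of-ratios factors the first of these was 0.15 and did not pass.

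Mrpl4, the counterpart of a bacterial protein that lines the exit tunnel (chr9:21001252-21008839, plus strand), was at 83.7, 78.3 and 82.9 TPM in the libraries of R7-I, 97.5, 102 and 118 TPM in the R7-II libraries, and 98.5, 101 and 98.0 TPM in the R7-III libraries. R7-I was the lowest, and R7-II and R7-III overlapped. In the limma fit the log2 fold change was 0.37 (SE 0.0615, adjusted p = 0.000326) for R7-II against R7-I, 0.28 (adjusted p = 0.0107) for R7-III against R7-I and 0.09 (adjusted p = 0.212) for R7-II against R7-III. With the median-of-ratios factors the first of these was 0.19 and did not pass (adjusted p = 0.0326).

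Of the other abundant members, Mrpl52 (chr14:54426909-54429750, plus strand) was at 355, 358 and 335 TPM in the R7-I libraries, 249, 276 and 287 TPM in those of R7-II, and 324, 313 and 295 TPM in those of R7-III. The 3 clones did not overlap. The log2 fold change was -0.37 (adjusted p = 0.000129) against R7-I and -0.20 (adjusted p = 0.00711) against R7-III, and the latter did not pass without replicate 1 or without replicate 2 of any of the 3 clones. The gene lies 0.203 Mb from the Tra locus (chr14:52427928-54224206), which is rearranged in these lines, and was the member closest to a T cell receptor locus. Mrpl30 and Mrps6, both with bacterial counterparts, had log2 fold changes of -0.22 and -0.26 against R7-I (adjusted p = 0.000167 and 0.000591) and of -0.18 and -0.22 against R7-III (adjusted p = 0.000635 and 0.00179). Mrps6 shares exon sequence with Slc5a3 on the same strand.

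The 3 least abundant members differed in their behaviour. Mrps25 (chr6:92169512-92184023, minus strand) was at 18.8, 18.3 and 19.7 TPM in the libraries of R7-I, 19.2, 19.2 and 19.1 TPM in the R7-II libraries, and 19.1, 19.6 and 17.9 TPM in the R7-III libraries, with log2 fold changes of 0.02 in both R7-II comparisons (adjusted p = 0.727 and 0.720). The clones overlapped. Mrpl17, at the tunnel exit, was at 22.6, 23.9 and 22.3 TPM in the R7-I libraries, 19.8, 22.4 and 20.4 TPM in those of R7-II, and 24.3, 25.5 and 25.2 TPM in those of R7-III, and passed against R7-III, though not without R7-III replicate 2. Mrpl57 was at 27.9, 25.7 and 25.2 TPM in the libraries of R7-I, 20.8, 23.3 and 22.8 TPM in the R7-II libraries, and 27.5, 26.8 and 26.9 TPM in the R7-III libraries, with log2 fold changes of -0.23 (adjusted p = 0.00396) and -0.27 (adjusted p = 0.00151), of which the former did not pass without R7-I replicate 1 or without R7-II replicate 1.

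The Mrps18 genes are 3 paralogs that descend from the same bacterial protein and now occupy different places, Mrps18a in the large and Mrps18b and Mrps18c in the small subunit. Mrps18a (chr17:46111004-46128908, plus strand) was at 110, 107 and 113 TPM in the R7-I libraries, 95.3, 97.7 and 89.5 TPM in those of R7-II, and 104, 108 and 104 TPM in those of R7-III. All R7-II libraries were the lowest, with log2 fold changes of -0.22 (adjusted p = 0.000557) and -0.16 (adjusted p = 0.00395). The latter did not pass without R7-II replicate 3 or without R7-III replicate 1 or 2. Mrps18b (chr17:35910380-35916440, minus strand) was at 214, 217 and 215 TPM in the libraries of R7-I, 221, 204 and 209 TPM in the R7-II libraries, and 206, 217 and 224 TPM in the R7-III libraries, with overlap of all clones and a log2 fold change of -0.03 in both R7-II comparisons (adjusted p = 0.531 and 0.503). Mrps18c was at 128, 128 and 117 TPM in the R7-I libraries, 106, 119 and 116 TPM in those of R7-II, and 115, 111 and 124 TPM in those of R7-III, with log2 fold changes of -0.13 (adjusted p = 0.0531) and -0.04 (adjusted p = 0.563). With the median-of-ratios factors Mrps18b (-0.21) and Mrps18c (-0.32) were also lower than in R7-I, and the differences between the paralogs were not tested.

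The remaining names that do not match a place in the small subunit are Mrps30 and Mrps36. Mrps30, which sits in the large subunit, was at 86.8, 80.2 and 90.6 TPM in the libraries of R7-I, 76.0, 75.3 and 78.5 TPM in the R7-II libraries, and 80.4, 82.5 and 86.4 TPM in the R7-III libraries. Its log2 fold change of -0.16 against R7-I missed the threshold narrowly (adjusted p = 0.0104), as -0.12 against R7-III did by more (adjusted p = 0.0487). Mrps36 was at 111, 109 and 110 TPM in the R7-I libraries, 94.4, 101 and 94.3 TPM in those of R7-II, and 107, 107 and 98.3 TPM in those of R7-III, with log2 fold changes of -0.19 (adjusted p = 0.00227) and -0.11 (adjusted p = 0.0344). The call against R7-I did not pass without R7-I replicate 1.

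Overlapping genes touched 24 members. Of these, 21 share exon sequence of any annotated transcript with a gene of the table on the opposite strand and 4 (Mrpl51, Mrps6, Mrps24 and Mrps34) on the same strand, Mrps34 having both. Of the 53 members with no such overlap, 31 were lower and 1 higher in R7-II against R7-I, and 27 were lower against R7-III. Of the 24 with an overlap, 14 were lower than in R7-I and 14 lower than in R7-III. Over all genes tested, 15.5% were lower and 40.6% higher against R7-I, and 18.0% lower and 35.6% higher against R7-III.

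Other parts of the mitochondrial machinery were counted in the same fits. Of all genes tested, 15.5% were lower and 40.6% higher in R7-II against R7-I, and 18.0% lower and 35.6% higher against R7-III. Of the 6 mitoribosomal proteins whose symbols do not begin with Mrp, R7-II had 2 lower against R7-I and 4 lower against R7-III, and none was higher. Chchd1 (-0.24, adjusted p = 0.00129, against R7-I, and -0.28, adjusted p = 0.000473, against R7-III) and Gadd45gip1 (-0.16 and -0.15, adjusted p = 0.00362 and 0.00499) passed in both. Ptcd3 (-0.17, adjusted p = 0.000718) and Aurkaip1 (-0.22, adjusted p = 0.00130) passed against R7-III. At an unadjusted p under 0.05 in the limma fit, 1 of the 6, Dap3, was higher against R7-I. Dap3 (0.13 and 0.08) and Ict1, also known as Mrpl58, a peptidyl-tRNA hydrolase built into the large subunit (0.01 and 0.05), passed in neither.

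The factors that work on the mitoribosome held calls in both directions. Of 13 translation factors, 3 were higher and 3 lower (23.1% each) in R7-II against R7-I. Of all genes tested, 40.6% were higher and 15.5% lower in this comparison. Against R7-III, 3 translation factors were higher and 4 lower, where 35.6% of all genes tested were higher and 18.0% lower. The elongation factor Gfm1 was lower (log2 fold change -0.32, adjusted p = 3.57e-06) and the initiation factor Mtif2 higher (0.59, adjusted p = 6.64e-06) against R7-I. Of 24 assembly factors and rRNA-modifying enzymes, 4 were higher and 1 lower than in R7-I, and 2 higher and 4 lower than in R7-III. Mettl17, an assembly factor of the small subunit, was at 47.1, 47.0 and 43.1 TPM in the libraries of R7-I, 63.6, 60.2 and 60.4 TPM in the R7-II libraries, and 32.2, 33.9 and 34.9 TPM in the R7-III libraries (log2 fold changes of 0.42 and 0.85 for R7-II, adjusted p = 2.68e-05 and 2.35e-07), while the rRNA methyltransferase Rnmtl1 was lower than in R7-I (-0.34, adjusted p = 0.000124).

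The mitochondrial protein import list had 12 of 16 genes lower than in R7-I, 10 of 16 lower than in R7-III and 0 higher in either, and medians of -0.27 and -0.15. At an unadjusted p under 0.05 the limma fit likewise gave 0 higher import genes in both. Over all genes tested, 15.5% were lower and 40.6% higher against R7-I, and 18.0% lower and 35.6% higher against R7-III. Timm17a, a channel subunit of the inner membrane translocase, had the largest decrease (-0.61, adjusted p = 9.55e-08, against R7-I). Of 74 subunits of oxidative phosphorylation, 29 were lower and 4 higher than in R7-I, and 29 lower and 1 higher than in R7-III, with medians of -0.11 and -0.10. Among these Atp5g1, of the ATP synthase ring, was lower (-0.39, adjusted p = 0.000134) and Ndufa3, of complex I, higher (0.41, adjusted p = 7.46e-06) in R7-II against R7-I.

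Of 12 genes for mitochondrial DNA maintenance and transcription, 5 were lower and 3 higher than in R7-I, and 3 lower and 3 higher than in R7-III. For this and the next lists, 15.5% of all genes tested were lower and 40.6% higher than in R7-I. Against R7-III these shares were 18.0% and 35.6%. Slirp, which stabilises mitochondrial messenger RNA, had the largest decrease (-0.46, adjusted p = 5.72e-06) and Polg2, a subunit of the mitochondrial DNA polymerase, the largest increase (0.36, adjusted p = 0.00158) against R7-I. Of 17 genes of the tricarboxylic acid cycle, 5 were lower (Idh3a, -0.31, adjusted p = 7.26e-06) and 3 higher (Sdha, 0.33, adjusted p = 2.98e-06) than in R7-I, and 6 lower and 3 higher than in R7-III. Of 8 tested regulators of mitochondrial biogenesis, 2 were lower and 2 higher than in R7-I, and 1 lower and 2 higher than in R7-III. Myc, a regulator of growth, was at 660, 650 and 635 TPM in the R7-I libraries, 541, 522 and 573 TPM in those of R7-II, and 598, 610 and 587 TPM in those of R7-III (-0.25, adjusted p = 8.84e-05, for R7-II against R7-I), and Gabpa was higher in R7-II (0.24, adjusted p = 0.000514).

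The proteins of the cytosolic ribosome, which makes the mitoribosomal proteins, showed smaller counts. Of 79 tested, 15 were lower and 5 higher in R7-II against R7-I, and 5 lower and 6 higher against R7-III, with medians of -0.04 and 0.01. The shares over all genes tested were 15.5% lower and 40.6% higher against R7-I, and 18.0% and 35.6% against R7-III. The summed TPM of the cytosolic ribosomal proteins in R7-II was 0.975 of that in R7-I and 1.001 of that in R7-III. For the mitoribosomal members these ratios were 0.866 and 0.875. The difference between the lists was not tested. Between R7-III and R7-I, at most 4 genes of any list described here passed in either direction. These were 4 oxidative phosphorylation genes higher in R7-III (5.41%) and 4 cytosolic ribosomal protein genes lower (5.06%). Of all genes tested, 6.96% were higher and 1.45% lower in that comparison. Among the cytosolic ribosomal proteins, the largest changes in R7-II against R7-I were in genes of low level, Rpl39l (-0.66, adjusted p = 0.125, not passing) and Rps4l (0.72, adjusted p = 0.00245).

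**Figure D5:**
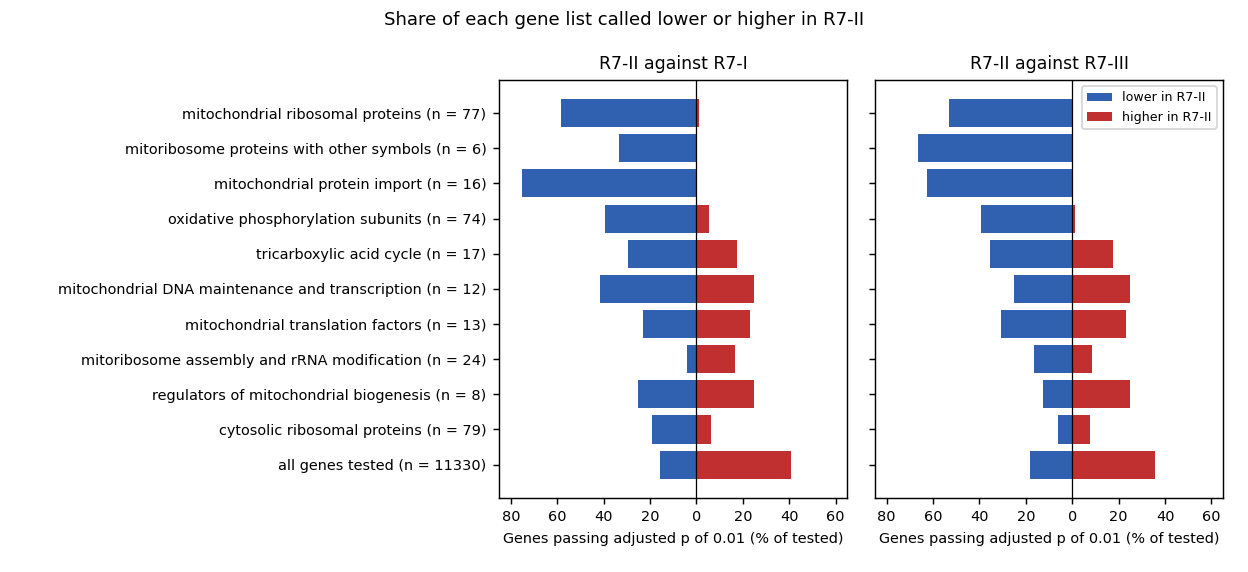
Share of the tested genes of each list that passed the adjusted p of 0.01, as bars to the left (lower in R7-II) and to the right (higher in R7-II), against R7-I and against R7-III, with the number of genes tested per list. Of the mitochondrial ribosomal proteins 58.4% and 53.2% were lower, where 15.5% and 18.0% of all genes tested were lower.

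The counts for the members were also computed without each R7-II library. Without R7-II replicate 1, which had the highest B cell and MHC class II sums, 39 members were lower than in R7-I and 34 lower than in R7-III. Of all genes tested, 14.2% and 16.7% were then lower. Without replicate 3, which had the highest myeloid sum, 39 and 35 members were lower, where 14.2% and 16.5% of all genes tested were. Without replicate 2 the counts were 46 and 43, where 15.0% and 17.4% of all genes tested were lower. Every R7-II library had higher B cell, MHC class II and myeloid sums than any library of the other clones. Leaving out a single library therefore does not remove that difference, and the part of those cells in the counts was not tested.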

How the data were processed

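Sorted, ROP7-activated CD8 T cells of 3 clones were measured in 9 libraries (100-bp single-end reads, no strand kept). The authors aligned and counted the reads with RSEM 1.2.11 against RefSeq genes of mm10, and the deposited unit is TPM per symbol; RSEM divides reads among near-identical copies by estimate. Depth cannot be read from TPM, so counting error is not given. The count test of the authors (DESeq2 1.8.1) was replaced by limma 3.58.1 (R 4.3.3, lmFit and eBayes with trend) on log2(TPM + 1), which understates changes of low genes. All 9 libraries entered 1 fit of the 11330 genes with a highest TPM above 1, p-values being adjusted by Benjamini-Hochberg and called at 0.01. On simulated TPM values, 97% of 200 genes changed by 1 on the log2 scale between R7-II and R7-I were recovered. There were 6 false calls among the unchanged rest of the 11330 genes. No member changed by that much, and the simulated libraries had no fixed total. These figures therefore do not cover changes of the size seen in the members, or a shift of most genes in the same direction. P-values measure the spread between libraries.

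The members and gene lists were chosen with earlier results of these data known. Genes named were, per comparison, up to 6 called members with the largest change in each direction and no overlap of libraries, the 5 most and 3 least abundant, fixed names (Mrpl12, Mrps18a to Mrps18c, Mrps30, Mrps36), members called between R7-III and R7-I, the largest change in each direction of each list, and mitoribosome proteins with other symbols. Older symbols were matched through RefSeq synonyms. Alternatives were other pseudocounts, filters, scalings, moderation, thresholds, fits of 2 clones, a replicate block, and each library left out.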

Additional observations from a re-analysis of the deposited data

How the results depend on the processing

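The counts of members called lower in R7-II kept within 1.5 times of 45 (against R7-I) and 41 (against R7-III) under every alternative except median-of-ratios scaling against R7-I. That scaling gave 73 lower and 0 higher against R7-I, where 29.4% of all genes tested were lower and 25.2% higher. The medians were -0.36, -0.30 and -0.067 for R7-II against R7-I, R7-II against R7-III and R7-III against R7-I. In the same order, the ratios of summed TPM were then 0.761, 0.798 and 0.953. In R7-III, 0 members were higher than in R7-I, where 4.86% of all genes tested were. Of all calls between R7-III and R7-I, 82.8% were higher in R7-III, and 56.6% with this scaling. Quantile normalization gave medians of -0.23 against R7-I and -0.038 for R7-III against R7-I, and turned Mrps25 from 0.02 to -0.23 against R7-I (adjusted p = 0.00306); the cause was not tested. An adjusted p of 0.05 gave 1 member higher in R7-II against R7-III and 4 higher in R7-III than in R7-I, where a mean TPM above 5 gave 2 and a fit of only the 2 clones 3. With each library left out in turn, 36 to 46 members were lower and 1 higher in R7-II against R7-I (median -0.20 to -0.16), 30 to 43 lower and 0 to 1 higher than in R7-III (median -0.20 to -0.14), and 2 to 3 lower and 1 to 3 higher in R7-III than in R7-I (median -0.025 to -0.0095). In these fits 13.2% to 15.1% of all genes tested were lower in R7-II against R7-I and 15.6% to 17.6% against R7-III. For R7-III against R7-I, 0.609% to 1.70% were lower and 3.09% to 7.79% higher. Leaving out R7-I replicate 3 gave the 1 member higher than in R7-III, and leaving out R7-II replicate 1 or 3 gave 2 and 3 members higher in R7-III than in R7-I. Of the values for single named members under an alternative, 1313 kept their side of the threshold, 25 no longer passed and 29 newly passed. Another 1, that of Mrps25 with quantile normalization, passed with the opposite sign. Values that passed in neither fit were counted as kept even where their sign changed. This was so for Mrpl12 in R7-III against R7-I, at -0.0087 to 0.049 with libraries left out. Mrpl57 against R7-I and Mrpl52 and Mrps18a against R7-III were among those lost in several.

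With the replicate number as a block, 42 members were lower and 1 higher against R7-I, 37 lower and 0 higher against R7-III, and 3 lower and 1 higher in R7-III than in R7-I. In that fit 14.6%, 17.2% and 1.11% of all genes tested were lower in the same order, and 38.4%, 33.9% and 5.36% higher. The deviations of same-numbered libraries correlated between -0.045 and 0.089 and those of other pairs between -0.095 and 0.065. The labels give only the number, and whether same-numbered libraries were prepared together was not tested. TPM holds no read depth, so the precision of low members cannot be set by counts. With 3 libraries per clone an exact permutation test cannot go below 0.1 for a single gene.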
